A study of Mus musculus with 6 samples.

Results

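The unfolded protein and integrated stress response genes described here are 35 genes chosen by symbol, of 51912 genes in the count table, and all 35 were found. They fall into 5 arms by role. The chaperone arm holds 15 genes for protein folding in the endoplasmic reticulum (ER), the XBP1/ATF6 arm 3 genes that sense and relay ER stress, the ERAD arm 4 genes for the degradation of misfolded ER proteins, the PERK/ATF4 arm 8 genes of the integrated stress response, and the amino acid arm 5 genes of amino acid supply that ATF4 is known to control. They were chosen by name and role, and no threshold on a measured value was part of the rule.

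RNA was measured by Smart-Seq2, a full-length cDNA method for small amounts of RNA, in testis cells of C57BL/6J mice on postnatal day 4, sorted for THY1 on the surface and against c-KIT. The 6 libraries were 3 from Bud31-vKO mice, in which Bud31 was deleted by Cre recombinase acting on loxP sites, and 3 from wild type mice of the same strain, age and sort. BUD31 belongs to the spliceosome, which cuts introns out of pre-mRNA. The comparison asks how RNA levels differ in these cells when it is deleted. The labels do not give the promoter that drives Cre, the exons deleted, or whether each library came from a separate animal, and the p-values then cover no more than the spread of these samples, part of which may be technical. RNA immunoprecipitation profiles of older wild type testes were not analysed here.

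The unfolded protein response adjusts the folding capacity of the ER to its load. The sensors IRE1 and ATF6 lead to the active transcription factors XBP1 and ATF6, which induce chaperones and degradation factors, while the kinase PERK phosphorylates the translation factor eIF2. That phosphorylation is shared with kinases that sense lack of amino acids, lack of haem and viral RNA, and the joint pathway is called the integrated stress response. It lowers general translation and favours translation of ATF4, which induces genes of amino acid synthesis and, under lasting stress, of cell death. Because IRE1 acts by splicing Xbp1 mRNA and ATF4 is controlled in translation, the RNA level of a gene does not show the activity of these sensors.

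Several facts of the libraries bear on all values below. The columns of the count table carry letters in place of genotypes. C was taken as wild type and T as Bud31-vKO, which the labels do not spell out. Bud31 measured 47.2, 67.6 and 80.4 CPM (reads scaled to library size, with TMM factors) in Bud31-vKO libraries 1, 2 and 3, against 138, 96.8 and 158 CPM in the wild type libraries, lower in every library read as Bud31-vKO. Totals were 13240704 to 14507038 reads in Bud31-vKO and 13577015 to 18744466 reads in wild type, so that 3 reads, taken as the floor, equal 0.166 to 0.222 CPM. Genes with at least 1 read numbered 20286, 12464 and 18997 in Bud31-vKO and 22300, 18171 and 13762 in wild type, so Bud31-vKO library 2 and wild type library 3 stood apart by low detection. The summed level of 12 germ cell markers was 1870, 2550 and 2340 CPM in Bud31-vKO, against 4110, 3990 and 3530 CPM in wild type, and 12 of 12 had a log2 fold change below 0. Of these markers 0, 2 and 0 were at 0 in the Bud31-vKO libraries and 0, 0 and 1 in the wild type libraries. The 6 stromal markers, none at 0, summed to more than the germ cell markers in every library, at 8390 to 14500 CPM in Bud31-vKO and 10000 to 21400 CPM in wild type, so markers of other cells were abundant although the label names spermatogonial stem cells. Their part in the results below was not tested. In such mixed RNA, fewer cells of a type and less RNA per cell cannot be told apart.

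No member passed the test. Of the 35 genes, 33 had enough reads to be tested, and Chac1 and Slc7a11 had not. With edgeR's quasi-likelihood test, adjusted by Benjamini-Hochberg at 5%, 0 members were called, and the share called over all 15240 genes tested was 0%. DESeq2 called 0 members as well, beside 0.308% of all genes (47 genes), and limma-voom called 0. At an unadjusted p under 0.05 in edgeR there were 2 members, Hsp90b1 and Psat1, both lower in Bud31-vKO. That is 6.06% of the members tested, beside 2.91% of all genes. Bud31 itself, the deleted gene, did not pass the edgeR test either. Its log2 fold change was -1.01 (standard error 0.39), with an unadjusted p of 0.0345 and an adjusted p of 0.9997. The lack of calls therefore does not show that the members were unchanged.

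The spread between libraries limits what the members can show, but it was smaller for them than for most genes. The median SD of log2 CPM within a group was 0.54 over the members and 1.30 over all genes tested. The log2 fold change of Bud31-vKO over wild type was above 0 for 14 members and below 0 for 19, with a median of -0.06, beside 0.02 over all genes. In 2 members, Atf4 and Ddit3, every Bud31-vKO library lay above every wild type library (6.06%, beside 4.76% of all genes). In 3 members, Hsp90b1, Pdia6 and Psat1, every Bud31-vKO library lay below (9.09%, beside 6.39% of all genes). With 33 members these counts are close to the background.

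**Figure D1:**
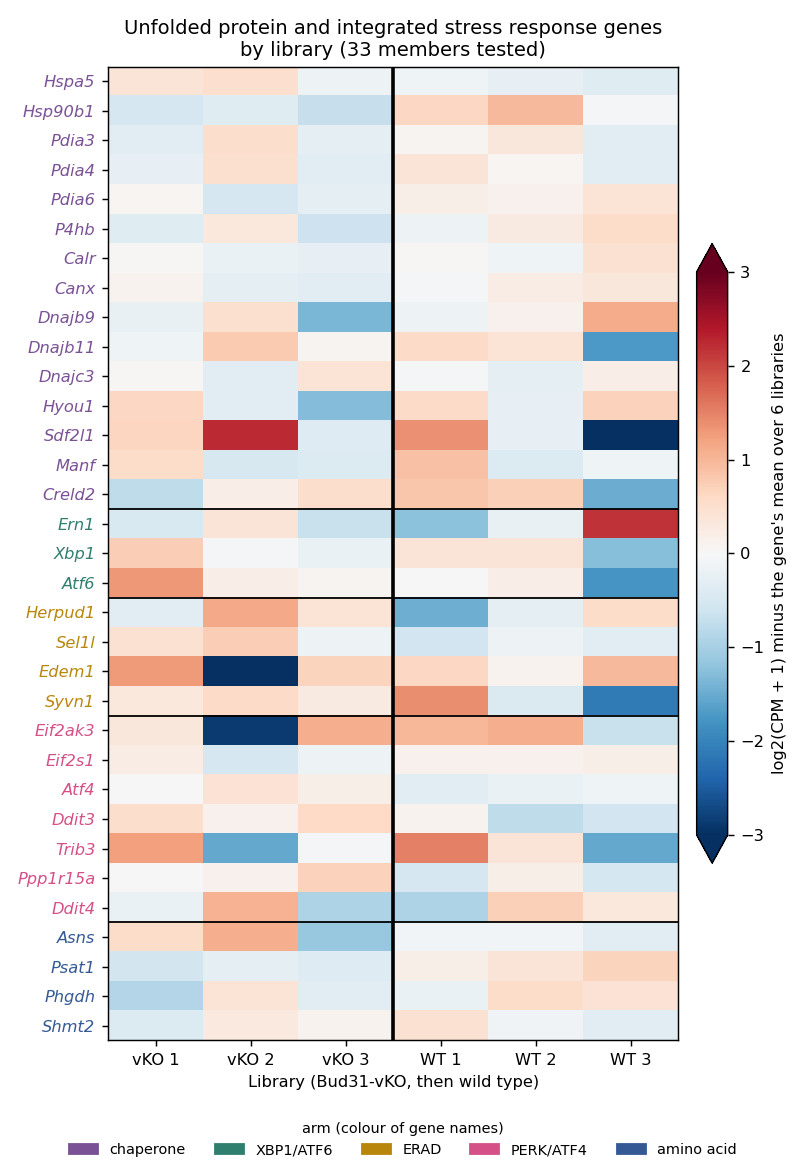
Level of each tested member in each library, as log2(CPM + 1) minus the gene's mean over the 6 libraries (red above it, blue below), with Bud31-vKO libraries at the left and wild type libraries at the right of the black line. Hsp90b1 is blue in the 3 Bud31-vKO libraries, while the deepest colours sit in single libraries, such as Ern1 in wild type library 3 and Edem1 in Bud31-vKO library 2.

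The stress response genes spanned the whole range of expression. On the scale of CPM per kilobase of exon, averaged over the 6 libraries, 16 members were at or above the 90th percentile of the genes tested. The highest levels were those of Pdia3 at 512, the serine synthesis enzyme Phgdh at 333 and Atf4 at 240 CPM per kb. Hsp90b1 at 176, P4hb at 160, Hspa5 at 154, Calr at 127 and Ppp1r15a at 97.4 CPM per kb followed. At the other end, 7 members lay at or below the 25th percentile of the genes tested. These were Hyou1 (1.84), Eif2ak3 (1.51), Trib3 (1.39), Syvn1 (1.11), Ddit4 (0.678), Chac1 (0.223) and Slc7a11 (0.00521 CPM per kb). Of the 16 abundant genes 10 were of the chaperone arm, with Atf4, Ppp1r15a, Phgdh, Shmt2, Asns and Psat1 beside them, and the scarce ones included the PERK gene itself and several genes that ATF4 and CHOP are known to induce.

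Hspa5 and Hsp90b1, the abundant ER chaperones that are commonly read as markers of the unfolded protein response, had log2 fold changes of opposite sign, and of these genes Hsp90b1 separated the groups while Hspa5 overlapped. Hsp90b1 encodes GRP94, the HSP90 chaperone of the ER, and Hspa5 encodes BiP, the HSP70 chaperone that also holds the stress sensors inactive. Hsp90b1 measured 452, 499 and 401 CPM in Bud31-vKO libraries 1, 2 and 3, against 996, 1270 and 630 CPM in wild type libraries 1, 2 and 3. All Bud31-vKO values lay below all wild type values, and the nearest pair was Bud31-vKO library 2 and wild type library 3. The means were 451 ± 49.2 CPM in Bud31-vKO and 965 ± 321 CPM in wild type (SD, n = 3 each), giving a log2 fold change of -1.10 ± 0.32 (standard error, SE, of the edgeR fit), or 2.14-fold lower. The unadjusted p was 0.00983 in edgeR and 0.00202 in DESeq2, where the adjusted p was 0.261. The unadjusted p stayed under 0.05 in 15 of 15 alternative settings, at 0.00202 to 0.0439, and the adjusted p passed 5% in none of them. The exons of Hsp90b1 (chromosome 10, 86690209 to 86705509, minus strand, GRCm38) share 415 bases with 1810014B01Rik on the other strand, and since strand use in counting is not given, reads there cannot be told apart.

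Hspa5 (chromosome 2, 34771970 to 34777547, plus strand) measured 830, 893 and 569 CPM in Bud31-vKO, against 584, 537 and 491 CPM in wild type. Bud31-vKO library 3 lay within the wild type range, and the other two lay above it. The means were 764 ± 172 CPM in Bud31-vKO and 537 ± 46.9 CPM in wild type (SD, n = 3 each), giving a log2 fold change of 0.51 ± 0.28 (SE) and an unadjusted edgeR p of 0.108. Its log2 fold change was 0.33 to 0.68 over the 15 alternatives, with no p under 0.05.

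**Figure D2:**
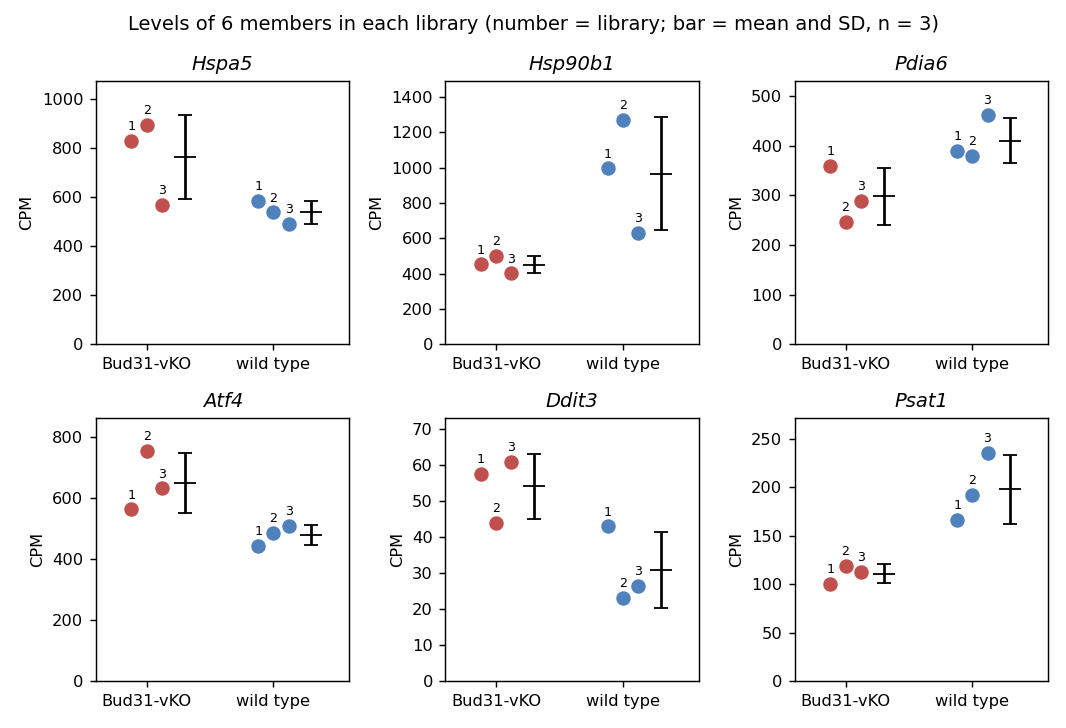
CPM of Hspa5, Hsp90b1, Pdia6, Atf4, Ddit3 and Psat1 in each library (points, numbered by library, Bud31-vKO in red and wild type in blue), with the mean and SD of each group (n = 3) beside them and axes from 0. The groups do not overlap except for Hspa5, where Bud31-vKO library 3 at 569 CPM lies below wild type library 1 at 584 CPM.

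Both genes carry the ER stress response element (ERSE) in their promoters, so their promoter windows are shown, 5′ to 3′ on the gene's strand, from 250 bases before to 50 bases after the transcription start as annotated by RefSeq on GRCm38.p6. The ERSE, through which ATF6 and the factor NF-Y are known to act, is the sequence CCAAT and the sequence CCACG separated by 9 bases. Capitals mark the ERSE and, in Hspa5, also TGACGTG, the core of the unfolded protein response element (UPRE) that XBP1 and ATF6 are known to bind. The window of Hspa5 is chr2:34771840-34772139 on the plus strand and that of Hsp90b1 is chr10:86705395-86705694 on the minus strand.
Hspa5: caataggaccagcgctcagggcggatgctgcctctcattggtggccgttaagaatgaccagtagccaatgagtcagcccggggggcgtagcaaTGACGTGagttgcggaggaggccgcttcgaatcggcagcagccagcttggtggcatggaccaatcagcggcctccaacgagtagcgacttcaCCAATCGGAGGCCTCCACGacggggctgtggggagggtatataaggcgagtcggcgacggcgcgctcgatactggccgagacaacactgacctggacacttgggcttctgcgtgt
Hsp90b1: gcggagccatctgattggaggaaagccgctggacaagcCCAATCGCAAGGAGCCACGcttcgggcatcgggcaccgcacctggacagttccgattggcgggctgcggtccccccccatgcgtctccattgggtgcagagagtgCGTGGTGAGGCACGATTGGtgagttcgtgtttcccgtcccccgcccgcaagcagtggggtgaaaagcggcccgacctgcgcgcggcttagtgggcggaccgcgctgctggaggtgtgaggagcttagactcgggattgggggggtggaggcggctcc
The ERSE of Hspa5 lies at positions -65 to -47 from the start and its UPRE core at -157 to -151. Hsp90b1 holds a pair of ERSEs, at -212 to -194 and, on the reverse strand, at -107 to -89, where it reads as its reverse complement.

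An exact ERSE was found in 8 of the 32 members with a promoter window (25%), beside 0.137% of the 27025 genes in the promoter table (37 genes) and 0.119% of its 32851 windows. The members were chosen for their role in the response that this element serves. The contrast with all genes therefore describes that choice, not these libraries, and the shares of other motifs below are to be read in the same way. Both strands were searched, and no ERSE overlapped another of the motifs searched. The matches are written below from CCAAT to CCACG, both in capitals, since the 9 bases between them differ from gene to gene while the ends do not.
Hspa5: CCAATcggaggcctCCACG
Hsp90b1, first: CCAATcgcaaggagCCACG
Hsp90b1, second: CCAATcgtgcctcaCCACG
Pdia6: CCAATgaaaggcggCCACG
Calr: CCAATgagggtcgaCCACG
Canx: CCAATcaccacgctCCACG
Dnajc3: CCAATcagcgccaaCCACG
Creld2: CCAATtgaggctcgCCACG
Syvn1: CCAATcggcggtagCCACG
Among the ERSE genes, 7 of the 13 chaperone members with a window stand beside 1 of 4 ERAD members and none of the other arms. The log2 fold changes of the members with this element had both signs, but only Hsp90b1 had an unadjusted edgeR p under 0.05. They were 0.51 (SE 0.28) for Hspa5, -1.10 (0.32) for Hsp90b1, -0.46 (0.28) for Pdia6 and -0.28 (0.28) for Calr. For Canx the value was -0.34 (0.27), for Dnajc3 0.10 (0.33), for Creld2 -0.25 (0.76) and for Syvn1 0.16 (1.71). The signs of Dnajc3, Creld2 and Syvn1 turned in 2, 3 and 3 of 15 alternatives. A difference in direction between these members is therefore not shown. Of the other 29 genes with an ERSE in the promoter table, 13 were tested, 8 with a log2 fold change above 0 and 5 below, with a median of 0.08. A match describes the letters of this window, not a site in use.

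**Figure D3:**
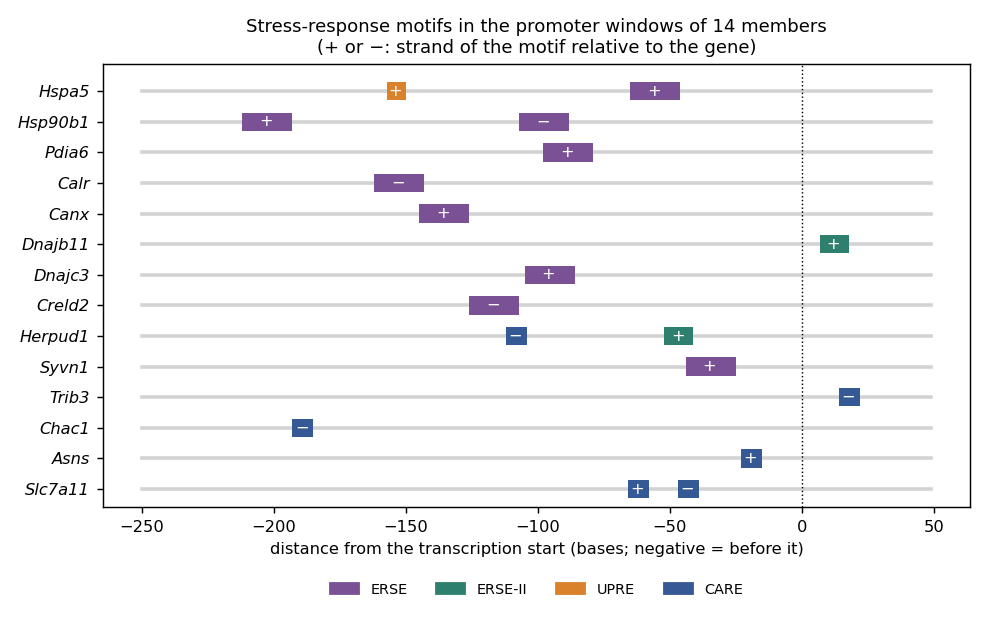
Position of each motif in the promoter windows of the 14 members that hold one, in bases from the transcription start (dotted line), with the strand of the motif relative to the gene inside each bar. ERSEs lie before the start in 8 genes, Hsp90b1 has a pair of them, and CARE motifs occur in Herpud1, Trib3, Chac1, Asns and Slc7a11.

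Protein disulfide isomerases, which form and rearrange disulfide bonds in the ER, included the most abundant member. Pdia3, which works with calnexin and calreticulin on glycoproteins, measured 1240, 2260 and 1280 CPM in Bud31-vKO, against 1660, 1960 and 1220 CPM in wild type. The groups overlapped and the log2 fold change was -0.02 ± 0.34 (SE). Pdia6, which also attenuates IRE1 signalling, measured 359, 246 and 288 CPM in Bud31-vKO, against 389, 379 and 462 CPM in wild type. All its Bud31-vKO values lay below all wild type values. The nearest pair was Bud31-vKO library 1 and wild type library 2, and the separation held in 2 of 3 other scalings. Its means were 298 ± 57.0 CPM in Bud31-vKO and 410 ± 45.2 CPM in wild type (SD, n = 3 each), with a log2 fold change of -0.46 ± 0.28 (SE) and an unadjusted edgeR p of 0.133. P4hb, the classical disulfide isomerase, averaged 392 ± 140 CPM in Bud31-vKO and 525 ± 125 CPM in wild type, and Pdia4 averaged 96.8 ± 32.2 CPM in Bud31-vKO and 101 ± 25.7 CPM in wild type (SD, n = 3 each). Both overlapped between groups.

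The lectin chaperones, which retain and fold glycoproteins, had means a little lower in Bud31-vKO, within the spread. Calr (calreticulin) measured 372, 315 and 304 CPM in Bud31-vKO, against 372, 331 and 499 CPM in wild type, and Canx (calnexin) measured 388, 292 and 283 CPM in Bud31-vKO, against 350, 416 and 454 CPM in wild type. Their log2 fold changes were -0.28 and -0.34, and both groups overlapped in each gene.

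The cofactors of BiP overlapped between the genotypes. Dnajb9 (ERdj4), which promotes the binding of BiP to IRE1, measured 105, 171 and 46.9 CPM in Bud31-vKO, against 111, 135 and 267 CPM in wild type. Dnajc3 (p58IPK), a co-chaperone of BiP that can also inhibit PERK, measured 166, 130 and 219 CPM in Bud31-vKO, against 160, 133 and 188 CPM in wild type. Dnajb11 (ERdj3) measured 31.7, 60.7 and 37.4 CPM in Bud31-vKO, against 53.0, 46.5 and 9.96 CPM in wild type, and only wild type library 3 was low. Hyou1, the nucleotide exchange factor of BiP also called GRP170, reached 4.21 to 18.9 CPM in Bud31-vKO and 9.78 to 19.9 CPM in wild type.

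Of the small chaperone genes that ER stress is known to induce, Sdf2l1 had the widest spread. It measured 19.3, 60.6 and 8.95 CPM in Bud31-vKO, against 32.7, 9.89 and 0.0582 CPM in wild type, where wild type library 3 had 1 read. Its log2 fold change of 1.06 had a standard error of 1.63 and was 0.01 to 2.57 when single libraries were left out. The sign turned, to -0.58, in the 4 libraries left without Bud31-vKO library 2 and wild type library 3. Manf, a secreted protein of the stressed ER, measured 259, 125 and 131 CPM in Bud31-vKO, against 321, 132 and 161 CPM in wild type, and Creld2 measured 22.4, 44.5 and 55.8 CPM in Bud31-vKO, against 69.5, 63.5 and 13.0 CPM in wild type. Both overlapped between the groups, and exons of Manf share 166 bases with the antisense gene 4930524O07Rik and 146 with Dcaf1.

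Over the chaperone arm, 4 of 15 genes had a log2 fold change above 0 and 11 below, with a median of -0.25, beside 0.02 over all genes. Without wild type library 1 the median was 0.00. None passed the test. The summed level of the arm was 4690, 5790 and 3990 CPM in Bud31-vKO, against 5640, 6060 and 5140 CPM in wild type, and the groups overlapped through Bud31-vKO library 2. The summed germ cell markers were lower in every Bud31-vKO library, as were Hsp90b1 and Pdia6 of this arm, while the arm's sums overlapped. The part of germ cell content in the arm's values was not tested.

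**Figure D4:**
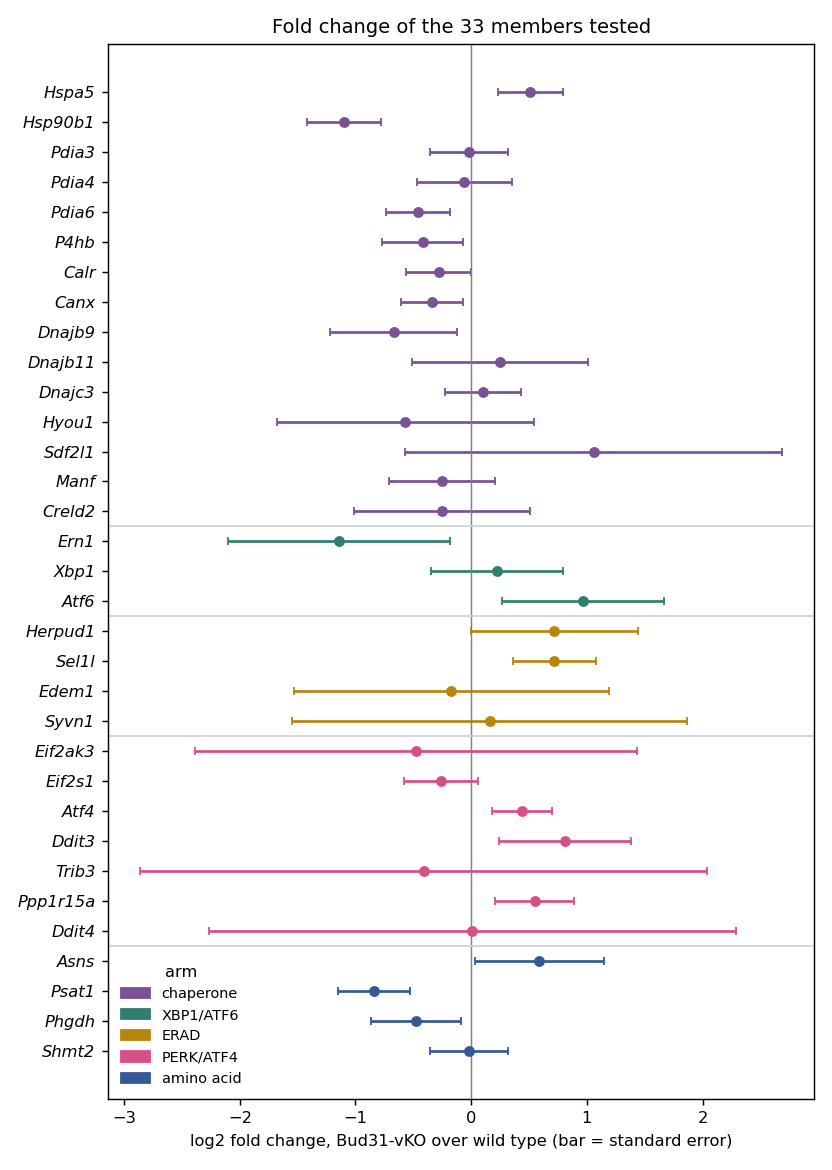
Log2 fold change of Bud31-vKO over wild type for the 33 members tested, by arm (points), with its standard error (bars) and a line at 0. Hsp90b1 at -1.10 lies farthest from 0 in units of its error, and the bars of scarce genes such as Trib3 and Ddit4 span both directions widely.

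The sensors and transcription factors of the XBP1/ATF6 arm overlapped between groups. Ern1, which encodes IRE1, measured 20.7, 38.2 and 17.9 CPM in Bud31-vKO, against 11.7, 24.6 and 133 CPM in wild type. One library set its mean, as 133 CPM in wild type library 3 stood far above the rest, and the log2 fold change of -1.14 (standard error 0.96) became 0.52 without that library. Xbp1 measured 115, 67.4 and 59.8 CPM in Bud31-vKO, against 90.1, 89.3 and 27.7 CPM in wild type, and counts per gene do not separate its spliced form from the unspliced one. Atf6 measured 104, 48.1 and 44.1 CPM in Bud31-vKO, against 41.0, 47.5 and 11.5 CPM in wild type. The values of Atf6 other than the 104 CPM of Bud31-vKO library 1 and the 11.5 CPM of wild type library 3 lay close together, and its log2 fold change was 0.97 ± 0.70 (SE), or 0.50 with Bud31-vKO library 1 left out and 0.58 with wild type library 3 left out. Of the 3 genes 2 had a log2 fold change above 0 and 1 below, with a median of 0.22. That median was -0.09 without Bud31-vKO library 1 and 0.35 to 0.52 without any other single library.

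Of the degradation genes, Sel1l came nearest to a separation. SEL1L is the adaptor of the ubiquitin ligase HRD1, which sends misfolded ER proteins to the proteasome. It measured 175, 213 and 116 CPM in Bud31-vKO, against 85.7, 116 and 103 CPM in wild type, and the groups met in a near tie at 116 CPM between Bud31-vKO library 3 and wild type library 2. Its means were 168 ± 48.5 CPM in Bud31-vKO and 102 ± 15.3 CPM in wild type (SD, n = 3 each), with a log2 fold change of 0.72 ± 0.36 (SE) and an unadjusted edgeR p of 0.0780. Under 3 of 3 other scalings the groups of Sel1l did not overlap.

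Herpud1, which joins the HRD1 complex and is strongly induced by ER stress, measured 29.7, 84.6 and 51.2 CPM in Bud31-vKO, against 13.2, 31.4 and 56.0 CPM in wild type, with a log2 fold change of 0.72 ± 0.72 (SE). Without single libraries this value was 0.27 (Bud31-vKO library 2), 0.33 (wild type library 1) and 1.33 (wild type library 3). Its promoter is the only member window with motifs of both pathways: ERSE-II, which is ATTGG and CCACG separated by 1 base, and CARE, the element TGATGNAA that ATF4 with a C/EBP partner is known to bind. The window, chr8:94386179-94386478 on the plus strand, is shown with both in capitals, CARE first and on the reverse strand.
Herpud1: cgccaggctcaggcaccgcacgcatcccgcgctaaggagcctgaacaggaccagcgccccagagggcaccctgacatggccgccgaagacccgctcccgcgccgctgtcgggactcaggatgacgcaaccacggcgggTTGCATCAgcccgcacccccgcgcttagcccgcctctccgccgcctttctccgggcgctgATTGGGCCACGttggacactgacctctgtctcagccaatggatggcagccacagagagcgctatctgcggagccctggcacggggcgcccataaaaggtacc
ERSE-II was found in 2 of 32 members (6.25%, Dnajb11 and Herpud1), beside 0.0444% of all genes. The log2 fold changes of this pair were 0.25 (SE 0.76) for Dnajb11 and 0.72 (SE 0.72) for Herpud1. That of Dnajb11 changed sign in 3 of 15 alternatives. Of the other 10 genes with the motif 7 were tested, 6 with a log2 fold change above 0 and 1 below. The UPRE core was found in 1 of 32 members (3.12%, Hspa5), beside 2.22% of all genes. Of the other genes with that core 344 were tested, 173 with a log2 fold change above 0 and 169 below.

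Syvn1, the HRD1 ligase itself, measured 5.34, 6.56 and 5.18 CPM in Bud31-vKO, against 12.3, 2.76 and 0.175 CPM in wild type. Its Bud31-vKO values were close together while those of wild type ran from the floor to the highest value of all. Edem1, which passes misfolded glycoproteins on to degradation, measured 37.8, 0.285 and 24.3 CPM in Bud31-vKO, where library 2 had 4 reads, against 23.8, 16.1 and 30.3 CPM in wild type. The summed ERAD arm was 247, 304 and 197 CPM in Bud31-vKO, against 135, 167 and 189 CPM in wild type, with all Bud31-vKO sums above, and Sel1l gave more than any other of the 4 genes in each library. The nearest pair was 197 CPM in Bud31-vKO library 3 and 189 CPM in wild type library 3. How often sums over other sets of genes separate was not tested, here or for the PERK/ATF4 arm below. Each tested gene was also weighted alike, as the mean over the arm of log2 CPM minus the gene's own mean. By that measure the groups overlapped, at 0.56, -0.54 and 0.44 in Bud31-vKO libraries 1, 2 and 3, against 0.15, -0.10 and -0.52 in wild type. The arm's median log2 fold change was 0.44, with 3 genes above 0 and 1 below. It was 0.26 without wild type library 2 and 0.71 with limma-voom.

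In the PERK/ATF4 arm, the abundant genes Atf4 and Ppp1r15a and the transcription factor gene Ddit3 had higher means in Bud31-vKO, and the upstream kinase did not. Atf4 (chromosome 15, 80255184 to 80257541, plus strand), the central transcription factor of the integrated stress response, measured 563, 756 and 632 CPM in Bud31-vKO, against 444, 487 and 508 CPM in wild type. All Bud31-vKO values lay above all wild type values, also under 3 of 3 other scalings. The means were 650 ± 98.0 CPM in Bud31-vKO and 480 ± 32.9 CPM in wild type (SD, n = 3 each), giving a log2 fold change of 0.44 ± 0.26 (SE). The unadjusted p was 0.125 in edgeR and 0.0880 in DESeq2, and the log2 fold change was 0.32 to 0.56 over the 15 alternatives.

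Ddit3 (chromosome 10, 127290774 to 127296288, plus strand) encodes CHOP, a factor downstream of ATF4 that is linked to cell death under lasting stress. It measured 57.5, 43.8 and 60.9 CPM in Bud31-vKO, against 42.9, 23.0 and 26.4 CPM in wild type. The groups did not overlap, but Bud31-vKO library 2 and wild type library 1 differed by little, and the separation held in 1 of 3 other scalings. The means were 54.1 ± 9.03 CPM in Bud31-vKO and 30.8 ± 10.7 CPM in wild type (SD, n = 3 each), with a log2 fold change of 0.81 ± 0.57 (SE) and an unadjusted edgeR p of 0.190. Exons of Ddit3 share 68 bases with the methionyl-tRNA synthetase gene on the opposite strand and 105 bases with another annotated copy of Ddit3, so its counts are uncertain to that degree.

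Ppp1r15a encodes GADD34, which directs the phosphatase that reverses eIF2 phosphorylation. It measured 276, 300 and 442 CPM in Bud31-vKO, against 194, 312 and 191 CPM in wild type, with a log2 fold change of 0.55 ± 0.34 (SE) and an unadjusted edgeR p of 0.147. Without Bud31-vKO library 3 the log2 fold change was 0.31. Wild type library 2 lay within the Bud31-vKO range, and the other two lay below it. Ppp1r15a is also among the genes known to respond to tissue dissociation, and 9 dissociation genes summed to 9030, 16900 and 14700 CPM in Bud31-vKO, against 6720, 13700 and 20300 CPM in wild type. Of the 8 dissociation genes tested, 7 had a log2 fold change above 0 and 1 below, with a median of 0.44, the same direction as Ppp1r15a. Their part in the level of Ppp1r15a was not tested.

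Eif2s1, the eIF2 subunit that the kinases phosphorylate, measured 180, 108 and 138 CPM in Bud31-vKO, against 167, 169 and 174 CPM in wild type. Its wild type values were almost equal, and the Bud31-vKO values lay on both sides of them. Eif2ak3, which encodes PERK, measured 8.26, 0 and 14.6 CPM in Bud31-vKO, against 13.6, 14.6 and 3.61 CPM in wild type, with no reads in Bud31-vKO library 2. Its exons share 485 bases with Gm43292 on the opposite strand.

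The other genes of this arm that ATF4 or CHOP is known to induce, Trib3, Ddit4 and Chac1, were scarce or at 0. Trib3, a pseudokinase, measured 5.85, 0 and 1.77 CPM in Bud31-vKO, against 7.29, 2.82 and 0 CPM in wild type. Ddit4 (REDD1, an inhibitor of mTORC1) had 9, 41 and 0 reads in Bud31-vKO, against 0, 39 and 24 reads in wild type. Chac1, an enzyme that degrades glutathione, had 0 reads in each of the 3 Bud31-vKO libraries, against 30, 0 and 0 reads in wild type, all of them in library 1. No difference was detectable in Trib3 and Ddit4 against this spread between libraries, and Chac1 was not tested. The summed PERK/ATF4 arm, of which Atf4 and Ppp1r15a made up most, was 1090, 1210 and 1290 CPM in Bud31-vKO, against 871, 1010 and 905 CPM in wild type, with all Bud31-vKO sums above. With each tested gene weighted alike, as for ERAD, the groups overlapped. The values were 0.56, -0.88 and 0.15 in Bud31-vKO libraries 1, 2 and 3, against 0.14, 0.54 and -0.52 in wild type. The arm's median log2 fold change was 0.01, with 4 of 7 tested genes above 0 and 3 below, and it was 0.18 to 0.44 when any single library was left out.

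**Figure D5:**
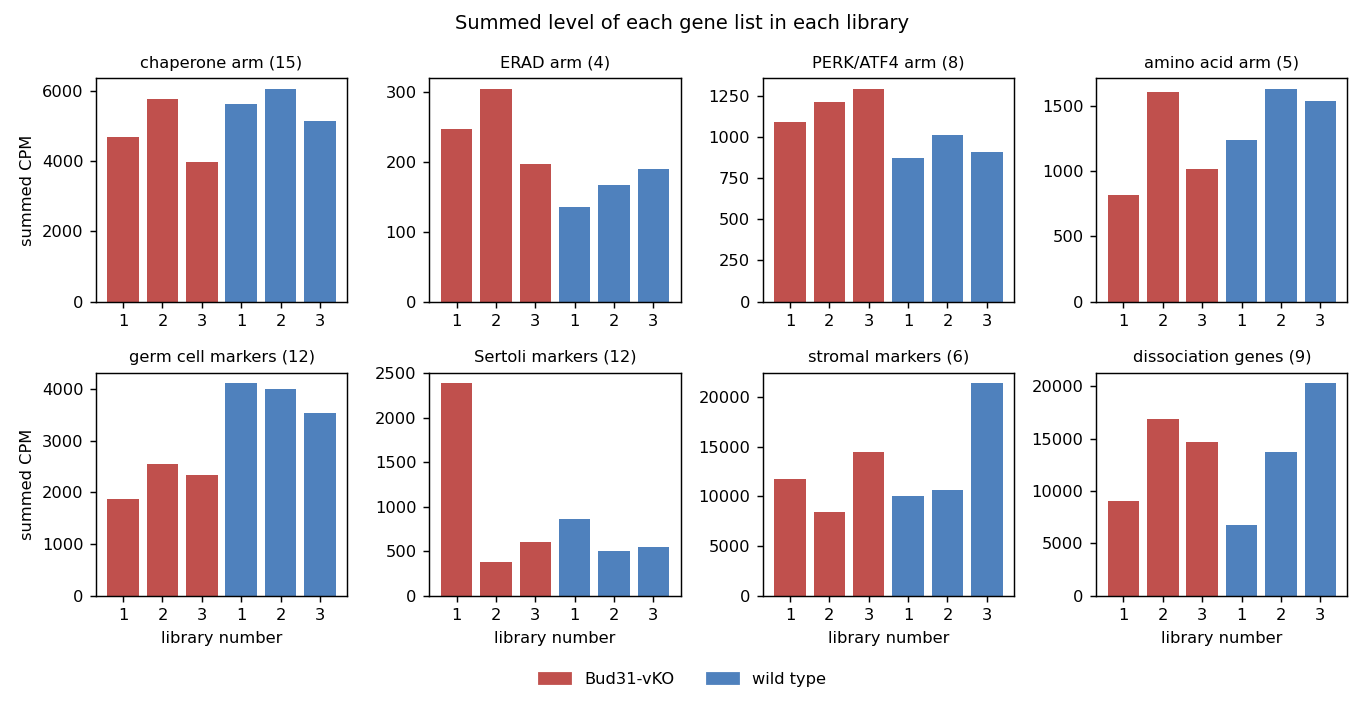
Summed CPM in each library (bars from 0, Bud31-vKO in red and wild type in blue, number of genes in parentheses) of 4 arms in the top row and of marker lists for germ cells, Sertoli cells, stromal cells and tissue dissociation in the bottom row. The ERAD and PERK/ATF4 sums are higher in all Bud31-vKO libraries, and the germ cell marker sums are lower in all of them. With each tested gene weighted alike, which is not drawn here, the ERAD and PERK/ATF4 arms overlapped between the groups. The ERAD margin is small, at 197 CPM in Bud31-vKO library 3 against 189 CPM in wild type library 3.

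Among the ATF4 targets of amino acid supply, Psat1 was lower in every Bud31-vKO library and Asns was not. Psat1 (chromosome 19, 15904678 to 15947337, minus strand), the aminotransferase of serine synthesis, measured 100, 119 and 113 CPM in Bud31-vKO, against 166, 192 and 236 CPM in wild type. All Bud31-vKO values lay below all wild type values, also under 3 of 3 other scalings. The means were 110 ± 9.50 CPM in Bud31-vKO and 198 ± 35.4 CPM in wild type (SD, n = 3 each), giving a log2 fold change of -0.84 ± 0.31 (SE), or 1.79-fold lower. The unadjusted edgeR p was 0.0253, it was under 0.05 in 9 of 15 alternatives, and it was 0.0603 in the 4 libraries left without Bud31-vKO library 2 and wild type library 3.

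Phgdh, which catalyses the step of serine synthesis before Psat1, measured 421, 1030 and 627 CPM in Bud31-vKO, against 682, 1150 and 1060 CPM in wild type, overlapping through Bud31-vKO library 2. Its log2 fold change was -0.48 ± 0.39 (SE), or -0.87 without that library and -0.19 without Bud31-vKO library 1. Shmt2, which turns serine into glycine and one-carbon units in mitochondria, measured 166, 271 and 237 CPM in Bud31-vKO, against 306, 205 and 174 CPM in wild type, with a log2 fold change of -0.02.

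Asns, asparagine synthetase, measured 132, 190 and 40.0 CPM in Bud31-vKO, against 84.7, 84.7 and 70.6 CPM in wild type. Its Bud31-vKO values enclosed the wild type values on both sides, and the log2 fold change of 0.59 had a standard error of 0.56. Leaving out Bud31-vKO library 2 gave 0.12 and leaving out Bud31-vKO library 3 gave 1.01, while the 4 libraries named for Psat1 gave 0.03. Its promoter window, chr6:7693160-7693459 on the minus strand, holds the CARE through which lack of amino acids is known to act, in capitals.
Asns: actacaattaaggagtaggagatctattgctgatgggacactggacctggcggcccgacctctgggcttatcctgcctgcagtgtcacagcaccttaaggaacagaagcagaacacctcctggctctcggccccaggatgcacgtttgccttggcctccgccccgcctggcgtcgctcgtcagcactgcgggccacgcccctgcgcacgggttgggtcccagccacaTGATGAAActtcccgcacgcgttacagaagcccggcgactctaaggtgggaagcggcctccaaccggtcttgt
CARE was found in 5 of 32 members (15.6%: Herpud1, Trib3, Chac1, Asns and Slc7a11), beside 4.51% of all genes. Of these members 3 were tested, 2 with a log2 fold change above 0 and 1 below. Of the 1214 other genes with the motif, 291 were tested, 126 above 0 and 164 below, with a median log2 fold change of -0.10. Slc7a11, the cystine transporter, had 1, 1 and 0 reads in Bud31-vKO, against 0, 0 and 5 reads in wild type, at or near the floor throughout. Of the 4 amino acid genes tested 1 had a log2 fold change above 0 and 3 below (median -0.25, or -0.52 with Bud31-vKO library 2 left out and -0.01 with Bud31-vKO library 1 left out). The arm summed to 820, 1610 and 1020 CPM in Bud31-vKO, against 1240, 1630 and 1540 CPM in wild type, with overlap.

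None of the other pathway genes passed the test either. A list of 100 other genes of the same 5 arms held 99 that were tested, of which 0 passed by edgeR and 0 by DESeq2, and 2 higher and 1 lower had an unadjusted p under 0.05 (beside 2.91% of all genes). Their log2 fold changes were above 0 in 47 and below 0 in 52, with a median of -0.03. By list, the median was -0.19 for 20 other chaperone genes (9 above 0 and 11 below), 0.09 for 14 other XBP1/ATF6 genes (8 and 6), 0.06 for 18 other ERAD genes (11 and 7), -0.09 for 20 other PERK/ATF4 genes (8 and 12) and -0.16 for 27 other amino acid genes (11 and 16). Groups without overlap occurred in 7 of the 99 genes higher in Bud31-vKO, beside 4.76% of all genes, and in 4 genes lower, beside 6.39% of all genes. These counts too are close to the background. The summed levels of the other genes overlapped between the groups in all 5 lists. Other ERAD genes summed to 2090 to 3030 CPM in Bud31-vKO and 2030 to 2690 CPM in wild type. Other PERK/ATF4 genes summed to 1180 to 1360 CPM in Bud31-vKO and 1040 to 1280 CPM in wild type. The separation of the ERAD and PERK/ATF4 member sums was thus not seen in these lists.

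Of the genes with the smallest p in each list, the transcription factor gene Creb3l2 and the transporter gene Slc1a5 were higher in Bud31-vKO and the tRNA synthetase gene Mars1 was lower. Creb3l2, an ER membrane factor released by cleavage in the Golgi as ATF6 is, measured 134, 51.4 and 114 CPM in Bud31-vKO, against 37.1, 42.3 and 32.5 CPM in wild type, with no overlap. Its log2 fold change was 1.42 ± 0.50 (SE), with an unadjusted edgeR p of 0.0220, which ran from 0.00265 to 0.0940 over 15 alternatives. Slc1a5, a carrier of glutamine and other neutral amino acids, measured 112, 110 and 99.7 CPM in Bud31-vKO, against 41.0, 58.8 and 55.3 CPM in wild type. Its Bud31-vKO values were close together and all higher, with a log2 fold change of 1.05 ± 0.38 (SE) and an unadjusted edgeR p of 0.0248 (0.00728 to 0.0936 over 15 alternatives).

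Mars1, which charges tRNA with methionine, measured 30.0, 59.4 and 116 CPM in Bud31-vKO, against 166, 323 and 211 CPM in wild type. All Bud31-vKO values were lower, with a log2 fold change of -1.77 ± 0.54 (SE) and an unadjusted edgeR p of 0.0119 (0.000965 to 0.0513 over 15 alternatives). Mars1 overlaps Ddit3 on the opposite strand, and the log2 fold changes of these genes have opposite signs. None of the 3 genes passed the adjusted test.

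The other genes named by the same rule had larger p. Without overlap, Nploc4, a cofactor of the ATPase VCP that extracts ERAD substrates, measured 163, 168 and 396 CPM in Bud31-vKO, against 139, 132 and 147 CPM in wild type. Eif2b5, the catalytic subunit of the exchange factor that phosphorylated eIF2 inhibits, measured 41.5, 54.9 and 77.9 CPM in Bud31-vKO, against 104, 80.2 and 136 CPM in wild type, also without overlap. Their unadjusted edgeR p-values were 0.0890 for Nploc4 and 0.0762 for Eif2b5. The separation held in 3 of 3 other scalings for Nploc4 and in 2 of 3 for Eif2b5. The log2 fold change of Nploc4 was 0.80, and 0.25 without Bud31-vKO library 3.

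Of those with overlapping groups, the ER co-chaperone gene Dnajc1 had a log2 fold change of 0.91 (standard error 0.50) and Uggt1, the sensor enzyme that returns misfolded glycoproteins to calnexin, a log2 fold change of -0.95 (0.56). Rtcb, the ligase that joins the Xbp1 exons after IRE1 has cut them, had a log2 fold change of -0.42 (0.29), and Selenos, an ERAD selenoprotein, a log2 fold change of 0.71 (0.41). Cebpb, a partner factor of ATF4, measured 4.97, 1.50 and 6.21 CPM in Bud31-vKO, against 1.46, 0.331 and 0.0582 CPM in wild type, where library 3 had 1 read. Unlike the genes before it in this paragraph, Cebpb had groups that did not overlap. The margin was only that between 1.50 CPM in Bud31-vKO library 2 and 1.46 CPM in wild type library 1. The separation held in 1 of 3 other scalings. The log2 fold change of Cebpb was 2.77, with an unadjusted edgeR p of 0.171.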

How the data were processed

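The authors deposited whole-number read counts per gene, unscaled, as their unequal totals show, for 6 Smart-Seq2 libraries. The submitters' processing notes name bcl2fastq and the mm10 build. Aligner, counter and strand use are not given there. Symbols, exons and coordinates came from GENCODE M21 on GRCm38, the same assembly, which named 99.6% of the identifiers.

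Genes were kept with filterByExpr (minimum count 10, minimum total count 15) and scaled by TMM, and genotypes were compared with edgeR 4.0.16's quasi-likelihood test without covariates, adjusted by the Benjamini-Hochberg method at 5% over 15240 genes. Exact permutation of 3 against 3 libraries reaches 0.1 at best and was not applied. The floor of 3 reads covers counting error only. Levels between genes were divided by exon length. The alternatives were scaling by RLE, upper quartile or library size, other filters, DESeq2 1.42.0, limma-voom (limma 3.58.1), a replicate block, each library left out, and 4 libraries without the pair of lowest detection. The steps were tested on simulated data, but the outcome is not given here and no power is claimed from it. The biological coefficient of variation, edgeR's measure of spread between libraries, was 119% over all genes tested. Analyses ran in R 4.3.3 and Python 3.11.15.

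All 35 members are described. Of 100 other pathway genes in 5 lists, the text names the 2 per list with the smallest p. Members, lists and motifs were chosen with earlier results of these data known. Promoter windows came from RefSeq (GRCm38.p6), with a window for 32 members and none for Hyou1, Manf and Atf6.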

Additional observations from a re-analysis of the deposited data

How the results depend on the processing

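No alternative called a member, and Hsp90b1 was lower with an unadjusted p under 0.05 in 15 of 15. Of the 33 members tested, 18 kept the sign of their log2 fold change in all 15 alternatives and 15 did not. Pdia3, Pdia4 and Shmt2, whose log2 fold changes lay close to 0, changed sign in 5 settings each. Over all genes, 7 were called with no filter (5 higher and 2 lower) and 47 by DESeq2 (17 higher and 30 lower), against 0 by edgeR. The median log2 fold change of the PERK/ATF4 arm was 0.01 and became 0.46 when genes needed 5 CPM in 3 libraries, which removes its scarce genes, and 0.18 to 0.44 when single libraries were left out. It was below 0 with upper-quartile scaling (-0.01), no filter (-0.13) and limma-voom (-0.21). The XBP1/ATF6 median was -0.09 to 0.52 and the ERAD median 0.26 to 0.49 with single libraries left out, against 0.22 and 0.44. The amino acid median was -0.52 to -0.01 with single libraries left out and -0.54 without Bud31-vKO library 2 and wild type library 3. The cause of these moves was not tested. The chaperone median was -0.51 to 0.00 over all alternatives. Members with no overlap between groups numbered 7 to 10 with single libraries left out and 15 in 4 libraries, against 5 in all 6, and fewer libraries separate more often by construction: the share over all genes was 16.6% to 24.9% and 39.4%, against 11.2%.

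Deviations of same-numbered libraries correlated at 0.19, 0.04 and -0.08, and those of libraries with different numbers at -0.21 to 0.11. With 3 libraries per group, these values cannot decide whether the library numbers pair the samples. With a replicate block 0 genes and 0 members were called, and the arm medians were -0.23 (chaperone), 0.35 (XBP1/ATF6), 0.76 (ERAD), 0.25 (PERK/ATF4) and -0.27 (amino acid). Trib3, Ddit4, Chac1, Slc7a11 and Eif2ak3 had 0 reads in at least 1 library, and a level under the floor of 3 reads cannot be told from 0 there.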

Other observations

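The balance of both major ER chaperones within a library separated the genotypes, a measure chosen after the values were seen. Hsp90b1 alone already separated the groups and Hspa5 had the opposite sign, so the ratio is not a result independent of these genes. How many other pairs of genes separate in this way was not tested. The ratio of Hspa5 to Hsp90b1 CPM was 1.84, 1.79 and 1.42 in Bud31-vKO libraries 1, 2 and 3, against 0.587, 0.423 and 0.779 in the wild type libraries. Its means were 1.68 ± 0.228 in Bud31-vKO and 0.596 ± 0.178 in wild type (SD, n = 3 each). BiP RNA was thus counted above GRP94 RNA in every Bud31-vKO library and below it in every wild type library, and since both counts come from the same library, scaling between libraries does not enter the ratio. No gene length was taken into account, so the value 1 has no meaning of its own.

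The marker lists not described above had the following summed levels. Sertoli cell markers summed to 374 to 2390 CPM in Bud31-vKO, with the highest value in library 1, and 506 to 861 CPM in wild type. Of the 10 Sertoli markers tested 9 had a log2 fold change above 0 and 1 below, with a median of 1.01, and 0 separated the groups. Leydig cell markers summed to 30.1 to 67.6 CPM in Bud31-vKO and 19.7 to 27.6 CPM in wild type, without overlap. Of the 7 Leydig markers 3, 5 and 3 were at 0 in Bud31-vKO libraries 1, 2 and 3, against 3, 3 and 6 in wild type. Only 3 were tested, and 0 of these separated the groups. Peritubular myoid markers summed to 85.0 to 289 CPM in Bud31-vKO and 87.5 to 654 CPM in wild type, and lymphocyte markers to 64.6 to 456 CPM in Bud31-vKO and 8.60 to 77.6 CPM in wild type. Endothelial markers summed to 4.35 to 183 CPM in Bud31-vKO and 0.116 to 101 CPM in wild type, macrophage markers to 13.3 to 99.0 CPM in Bud31-vKO and 12.1 to 165 CPM in wild type, and erythroid genes to 1.07 to 215 CPM in Bud31-vKO and 8.90 to 73.6 CPM in wild type. Their part in the members' values was not tested.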
